A study of Mus musculus with 12 samples.

Results

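The 8 genes described here, Acadm, Acadl, Acads, Acadvl, Hadha, Hadhb, Cpt1a and Cpt2, encode enzymes that carry fatty acids into mitochondria and shorten them there by beta-oxidation. They were chosen by the Acadm signal of these arrays, which had differed between genotypes in an earlier look at the data, and by their place beside Acadm in the pathway. All probes whose RefSeq accession belonged to one of the 8 genes were taken. This gave 9 probes of the 41174 on the array, 2 of them for Cpt1a and 1 for each other gene, and the 8 genes are 8 of 17305 genes named on the array.

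The arrays were single-colour Agilent mouse expression arrays hybridised with RNA from mouse embryonic fibroblasts, connective tissue cells grown from embryos. Cells with Atm, a kinase activated by broken DNA, are called Atm-WT, and cells labelled as lacking it Atm-KO. The 4 groups were nonirradiated Atm-WT, Atm-WT irradiated with 4.32 Gy, nonirradiated Atm-KO and Atm-KO irradiated with 4.32 Gy, with 3 arrays each and RNA taken after 72 h of culture. The labels give neither the Atm allele, nor the strain, nor the age of the embryos, nor the kind of radiation, nor whether replicates were separate cultures, so p-values measure only how far these samples differ, and that spread may be technical.

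In beta-oxidation, long-chain fatty acids cross the mitochondrial membranes as carnitine esters. Cpt1a on the outer membrane makes the ester, and Cpt2 on the inner membrane turns it back into an acyl-CoA. Acyl-CoA dehydrogenases then start each round, and they divide the work by chain length: Acadvl takes very long, Acadl long, Acadm medium and Acads short chains. The trifunctional protein, whose alpha subunit is Hadha and whose beta subunit is Hadhb, carries out the later steps on long chains. Fibroblasts, like most cells with mitochondria, can oxidise fatty acids, although the pathway is best known from liver, heart and muscle.

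The promoter windows of 4 members are printed. They are Acadm, Acadl, the member whose profile over the arrays was nearest to that of Acadm, and Hadha and Hadhb, which face each other across a shared stretch. Each window runs from 250 bases before to 50 bases after the annotated start site, 5′ to 3′ on the gene's strand, from RefSeq on GRCm38.p6, in which all 8 members were matched. Capitals mark matches on either strand to the nuclear receptor half-site AGGTCA, the GC box GGGCGG or the CCAAT box CCAAT. The windows lie at chr3:153944594-153944893 on the minus strand for Acadm, at chr1:66863260-66863559 on the minus strand for Acadl, at chr5:30154931-30155230 on the minus strand for Hadha and at chr5:30155003-30155302 on the plus strand for Hadhb.
Acadm: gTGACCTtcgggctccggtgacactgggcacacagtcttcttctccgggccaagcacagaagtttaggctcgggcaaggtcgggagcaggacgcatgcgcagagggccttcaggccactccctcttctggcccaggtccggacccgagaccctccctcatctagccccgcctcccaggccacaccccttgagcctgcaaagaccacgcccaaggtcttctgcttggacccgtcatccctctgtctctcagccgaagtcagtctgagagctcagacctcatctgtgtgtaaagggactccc
Acadl: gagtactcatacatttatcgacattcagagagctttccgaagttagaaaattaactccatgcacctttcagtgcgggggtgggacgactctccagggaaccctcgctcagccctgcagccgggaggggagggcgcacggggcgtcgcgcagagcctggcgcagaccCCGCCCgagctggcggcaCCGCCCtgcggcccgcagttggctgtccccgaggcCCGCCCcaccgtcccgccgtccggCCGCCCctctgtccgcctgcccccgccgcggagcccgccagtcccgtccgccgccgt
Hadha: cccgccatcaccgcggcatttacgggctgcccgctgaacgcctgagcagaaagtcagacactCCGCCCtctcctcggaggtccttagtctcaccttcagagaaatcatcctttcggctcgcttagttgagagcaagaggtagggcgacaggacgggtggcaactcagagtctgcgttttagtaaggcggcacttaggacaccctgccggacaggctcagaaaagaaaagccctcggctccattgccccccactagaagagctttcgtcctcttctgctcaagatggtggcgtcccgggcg
Hadhb: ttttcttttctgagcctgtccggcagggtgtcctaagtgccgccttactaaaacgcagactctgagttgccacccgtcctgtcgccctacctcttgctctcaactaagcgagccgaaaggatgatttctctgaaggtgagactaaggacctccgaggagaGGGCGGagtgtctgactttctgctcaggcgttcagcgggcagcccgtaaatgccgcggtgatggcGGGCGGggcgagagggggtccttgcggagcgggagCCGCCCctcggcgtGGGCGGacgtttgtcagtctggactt

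The Acadm window held 1 half-site, on the opposite strand at position -249 from the start site, and no GC box. Acadvl also had 1 half-site and no GC box. Acadl had 4 GC boxes, Hadhb 4, Cpt1a 3, Cpt2 3, Acads 1 and Hadha 1, and Cpt1a had besides 1 half-site and the only CCAAT box among the 8 windows. Of 32851 promoter windows of the same length, 16.3% held AGGTCA, 35.7% held GGGCGG and 37.4% held CCAAT, so each of these short motifs is common. TCAAGGTCA, the site of oestrogen-related receptors, was in 0.423% of windows, and AGGTCANAGGTCA, a direct repeat of the half-site with 1 base between, in 0.0396%. Neither longer motif was in the window of any member as an exact match. Variants of these sites were not searched, and motifs this rare are seldom met in 8 windows. The Hadha and Hadhb start sites lay 273 bases apart on opposite strands, and their windows shared 228 bases, with the GC box of Hadha among them. GC content was 62.3% in the Acadm window and 50.7% in that of Acadvl, the lowest of the 8, against a median of 52.7% over all windows.

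The 75th percentile of signal ranged from 379 to 757 over the 12 arrays, 55.3% to 64.5% of probes were well above background by the scanner software's own call, and no spot was saturated. Values below are log2 signal minus the array's 75th percentile, so 0 is the array's 75th percentile, and levels of different probes are not set against each other. Replicate 1 stood apart from replicates 2 and 3 in several groups, and calls of listed pathway genes and of chromosome neighbours of Acadm that differ without it are given below. Atm itself, read as a check of the labels, was dim. Its values were -3.55, -5.65 and -4.25 in nonirradiated and -2.87, -4.60 and -4.60 in irradiated Atm-WT cells, against -5.43, -7.01 and -6.20 in nonirradiated and -5.66, -7.50 and -6.48 in irradiated Atm-KO cells. It was well above background on 5 of 6 Atm-WT arrays and 1 of 6 Atm-KO arrays, with differences of -1.73 ± 0.658 (limma adjusted p = 0.476) and -2.52 ± 0.658 (limma adjusted p = 0.225, or 0.00287 with the replicate number as a block). Whether its probe lies in a deleted part of the gene is not stated in the labels or files. All 11 fibroblast markers were well above background on every array.

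Acadm, the medium-chain dehydrogenase, had strong signal in Atm-WT cells and weak signal in Atm-KO cells, not well above background on 5 of 6 arrays. Its scanner signal was 3600, 1300 and 1610 on the nonirradiated Atm-WT arrays and 3740, 1010 and 1090 on the irradiated ones. On the nonirradiated Atm-KO arrays it was 8.71, 4.66 and 4.85, and on the irradiated ones 33.8, 8.7 and 2.82. The lowest Atm-WT value thus lay far above the highest Atm-KO value, and the genotypes did not overlap. The median of the 153 negative control spots was between 2.05 and 2.86 on every array. The Acadm spot was brighter than 148 to 153 of those 153 spots on the Atm-KO arrays. On irradiated Atm-KO replicate 1, at 33.8, it lay well above the brightest of them, at 3.49, and was called well above background there.

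**Figure D1:**
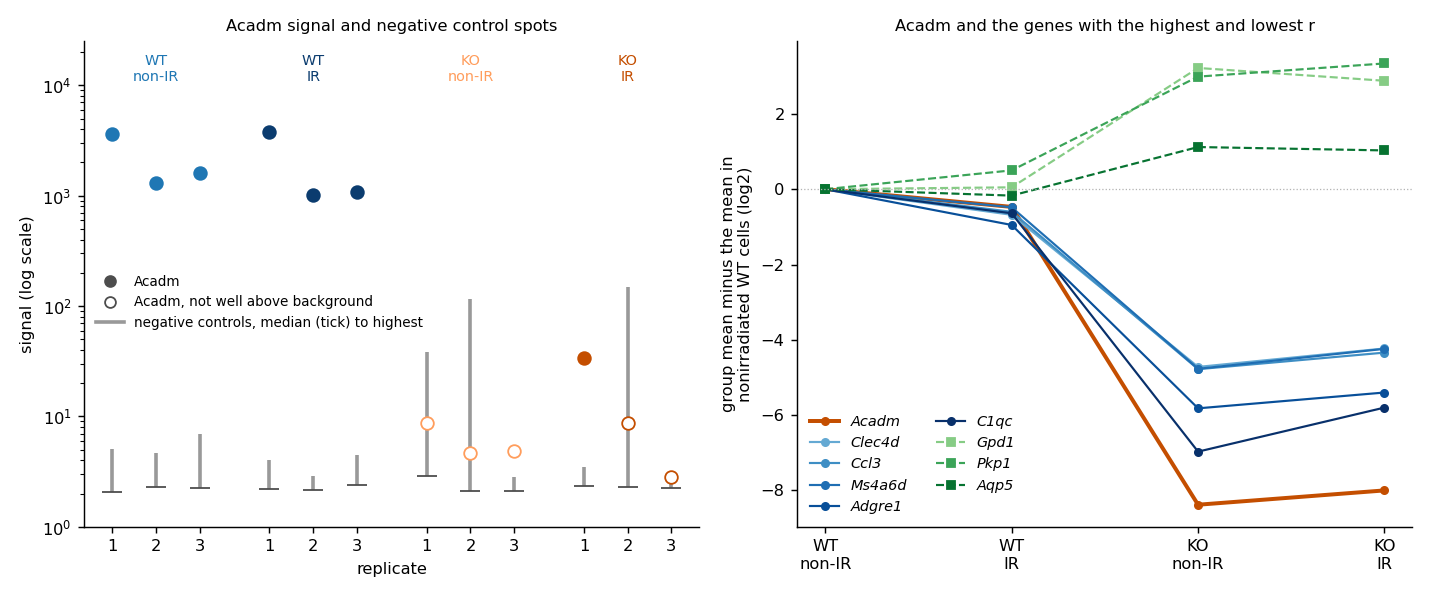
Left, Acadm scanner signal on each of the 12 arrays (log axis), filled where well above background and open where not, with the median to the highest of 153 negative control spots as a grey bar; the Atm-WT values lie between 1010 and 3740 and the Atm-KO values between 2.82 and 33.8. Right, group means of Acadm and of the 5 genes with the highest and the 3 genes with the lowest correlation with it, as the log2 difference from nonirradiated Atm-WT cells (3 arrays a group, WT and KO stand for Atm-WT and Atm-KO, IR for irradiated). The measured mean of Acadm lies at -8.38 in nonirradiated Atm-KO cells; Acadm and the 5 genes of highest correlation were well above background on at most 2 of 6 Atm-KO arrays each.

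On the scaled log2 scale, Acadm averaged 2.07 ± 0.427 (SD, n = 3) in nonirradiated and 1.61 ± 0.61 in irradiated Atm-WT cells. It averaged -6.30 ± 0.587 in nonirradiated and -5.93 ± 1.56 in irradiated Atm-KO cells. It was well above background on all 6 Atm-WT arrays, on 0 of 3 nonirradiated and on 1 of 3 irradiated Atm-KO arrays, the latter being replicate 1. Both Atm-WT groups thus stood above both Atm-KO groups. The values of the Atm-WT groups overlapped, and the Atm-KO groups were not ordered, since 5 of their 6 spots were not well above background.

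The measured difference, Atm-KO minus Atm-WT, was -8.38 ± 0.634 (SE) without irradiation and -7.53 ± 0.634 with it. Because Acadm was chosen for this difference, it is a description and carries no test. Where a group has no array well above background its level is only a bound, set on each array as the higher of the lowest signal that was well above background and the probe's own signal. With that bound the Acadm signal was at least 185-fold higher in nonirradiated Atm-WT than in nonirradiated Atm-KO cells, against a measured ratio of 333. By the same reckoning it was at least 112-fold higher in irradiated Atm-WT than in irradiated Atm-KO cells, where 1 of 3 Atm-KO arrays measured it, against a measured ratio of 185. All Acadm values come from 1 probe with 1 spot on each array. Its place in the transcript was not known, and no second probe of the gene was there to compare.

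The 12 arrays lay on 3 slides, of which slide 1 held Atm-WT and slide 3 Atm-KO samples, and slide 2 held 1 pair of each. Within slide 2, with 1 array a group and so no error, Acadm differed by -7.50 between nonirradiated and by -5.72 between irradiated cells. With the slide as a fixed term the differences were -7.04 ± 0.658 and -6.19 ± 0.658. They were smallest, at -4.66 and -4.11, after normexp background correction with an offset of 50 and quantile normalization, a setting that lifts dim spots by construction.

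Acadm passed the filter on dim features only through the Atm-WT groups, and a feature that does so had to be lower in Atm-KO cells. The other 7 members were well above background on all 12 arrays. One of 8 members, Acadm, was past an adjusted p of 0.05 in each genotype comparison by the limma fit, where 0.857% of 18430 features were past it in nonirradiated and 0.206% in irradiated cells. Nothing is read from this count, since that contrast chose the gene.

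Acadl, the long-chain dehydrogenase, varied little among the arrays. Its values were 1.81, 1.55 and 1.70 in nonirradiated Atm-WT, 1.32, 1.28 and 1.33 in irradiated Atm-WT, 1.19, 1.21 and 1.34 in nonirradiated Atm-KO and 1.36, 1.09 and 1 in irradiated Atm-KO cells. All 3 nonirradiated Atm-WT arrays lay above the other 9. The difference between nonirradiated genotypes was -0.44 ± 0.206 (SE, 95% interval -0.89 to 0.01), a ratio of 0.737. Between irradiated genotypes it was -0.16 ± 0.206, and those groups overlapped. Groups that do not overlap, lower in Atm-KO cells, were found for 5.4% of all features without irradiation.

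Acads, the short-chain dehydrogenase, gave 0.05, 1.04 and 0.81 in nonirradiated Atm-WT, 0.15, 1.04 and 0.77 in irradiated Atm-WT, 0.94, 0.70 and 0.63 in nonirradiated Atm-KO and -0.11, 0.84 and 0.73 in irradiated Atm-KO cells. Replicate 1 was the lowest array in every group but nonirradiated Atm-KO, where it was the highest. The genotypes overlapped in both comparisons, with differences of 0.12 ± 0.348 and -0.16 ± 0.348. Acadvl, the very-long-chain dehydrogenase, showed the same placing of replicate 1. Its values were 4.62, 5.37 and 5.24 in nonirradiated Atm-WT, 4.71, 5.56 and 5.37 in irradiated Atm-WT, 5.19, 5.10 and 5.17 in nonirradiated Atm-KO and 4.47, 5.47 and 5.42 in irradiated Atm-KO cells. Its genotype differences were 0.08 ± 0.332 and -0.09 ± 0.332, each less than its SE, and the groups overlapped.

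Hadha, the alpha subunit of the trifunctional protein, gave 0.18, 0.78 and 0.11 in nonirradiated Atm-WT, 0.53, 0.84 and 0.49 in irradiated Atm-WT, 0.29, 0.48 and 0.58 in nonirradiated Atm-KO and 0.13, 0.50 and 0.69 in irradiated Atm-KO cells. Hadhb, the beta subunit, gave 2.93, 2.67 and 2.58, then 2.75, 2.45 and 2.28, then 2.54, 2.67 and 2.61, then 2.80, 2.35 and 2.28 in the same order of groups. All groups of either gene overlapped between genotypes. The Hadha differences were 0.09 ± 0.258 and -0.18 ± 0.258, and the Hadhb differences -0.12 ± 0.234 and -0.02 ± 0.234, without and with irradiation. The subunits did not follow each other within groups, where the correlation of their deviations from the group means was -0.387 over 12 arrays that share their labelling and scaling.

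Cpt1a, the outer-membrane carnitine transferase, was spotted 10 times on each array for its bright probe. That probe gave 2.55, 2.87 and 2.51 in nonirradiated Atm-WT, 2.32, 3.04 and 2.81 in irradiated Atm-WT, 2.23, 2.72 and 2.74 in nonirradiated Atm-KO and 2.27, 2.88 and 2.58 in irradiated Atm-KO cells. The SD of its spots within an array was 0.00893 to 0.0751, against an SD of 0.196 to 0.369 between the arrays of a group; the arrays of a group thus differed by more than repeated spots of one array. Its second, dimmer probe had group means of -0.86, -0.59, -0.91 and -0.93 in the same order and differed by -0.05 ± 0.246 between nonirradiated and by -0.34 ± 0.246 between irradiated genotypes. Cpt2, the inner-membrane carnitine transferase, gave 3.80, 4.70 and 4.41, then 3.78, 4.69 and 4.45, then 4.19, 4.16 and 4.13, then 3.39, 4.24 and 4.08. Neither gene separated the genotypes. The Cpt1a differences were -0.08 ± 0.274 and -0.14 ± 0.274, and the Cpt2 differences -0.14 ± 0.326 and -0.40 ± 0.326.

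**Figure D2:**
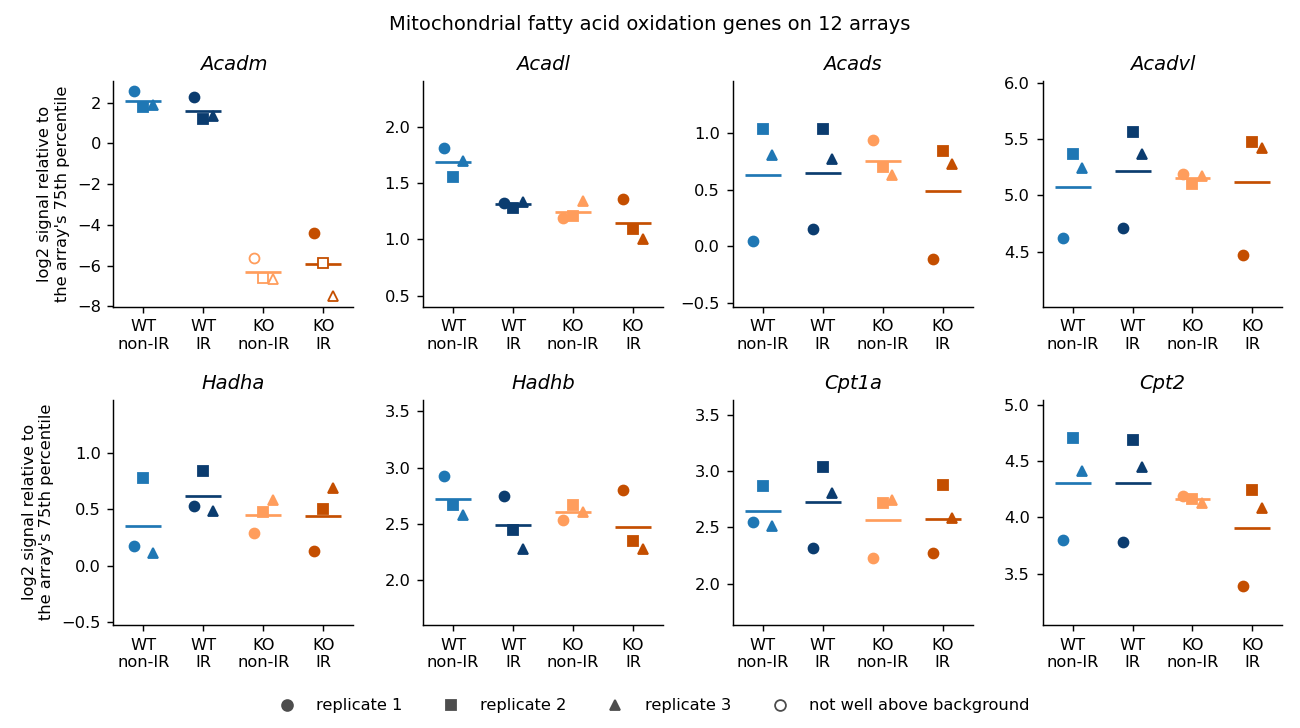
Scaled log2 signal, with the 75th percentile of the array at 0, for each member on each of 12 arrays, by group (WT and KO stand for Atm-WT and Atm-KO, IR for irradiated), with replicates 1, 2 and 3 as circles, squares and triangles, group means as bars and open symbols for arrays not well above background. The Acadm panel spans from -7.51 to 2.56 and the other panels each span 2 log2 units on their own axis; levels of different panels are not comparable.

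Across the 4 groups, the largest difference between any of the 4 compared pairs of group means was 0.14 for Acadvl and for Cpt1a, 0.23 for Hadhb, 0.26 for Hadha, 0.27 for Acads, 0.40 for Cpt2 and 0.44 for Acadl, against 8.38 for Acadm. The median difference of the 7 members other than Acadm was -0.08 between nonirradiated and -0.16 between irradiated genotypes, and the medians of all features tested were 0.04 and -0.01. The 95% intervals of these 7 genotype differences lay between -0.89 and 0.88 without irradiation and between -1.11 and 0.63 with it. With 3 arrays a group, true differences anywhere within a gene's own interval remain possible.

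**Figure D3:**
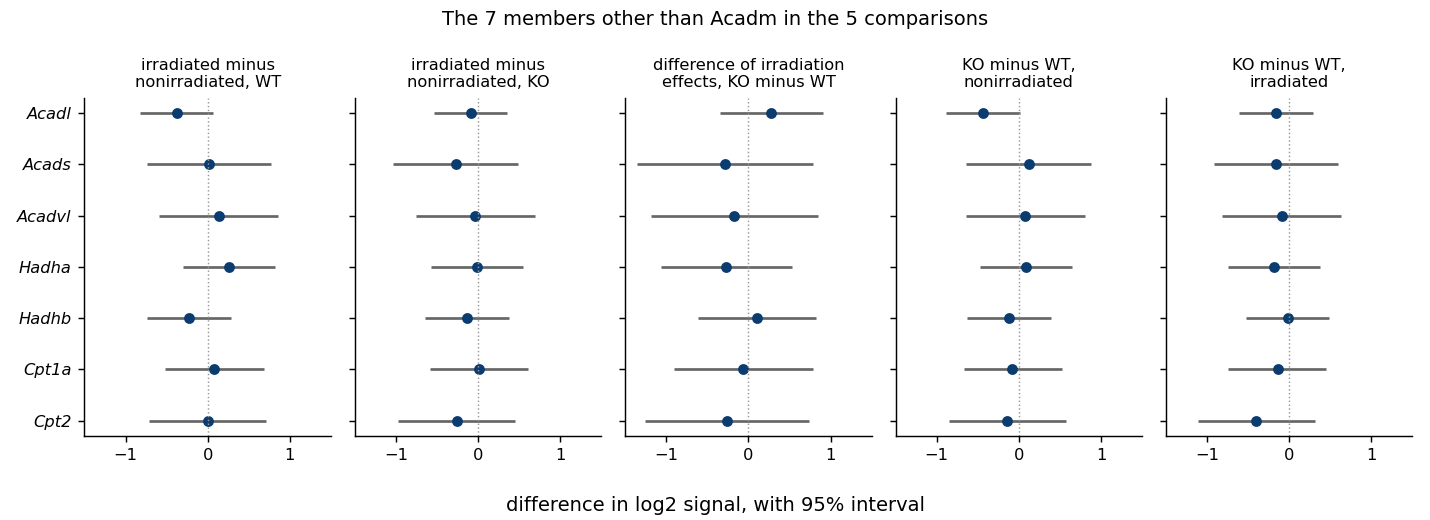
Difference in log2 signal with its 95% interval from the limma fit on 12 arrays, for the 7 members other than Acadm in 5 comparisons (WT and KO stand for Atm-WT and Atm-KO). Every interval includes 0, and the point farthest from 0 is that of Acadl, at -0.44 between nonirradiated genotypes.

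The response to irradiation was compared next, a measure that did not enter the choice of genes. None of 8 members changed in Atm-WT cells by the limma test at an adjusted p of 0.05, which called 0.445% of all features, and 0 had an unadjusted p under 0.05, as 6.46% of features had. In Atm-KO cells 0 of 8 changed, where 0.00543% of features were called, and 0 had an unadjusted p under 0.05, as 7.93% of features had. The difference between the irradiation effects of the genotypes was called for 0 of 8 members and for 0.00543% of features, again with 0 members under an unadjusted 0.05. Irradiated and nonirradiated samples of a genotype were also paired, with the replicate number as a block. The features called for irradiation then numbered 417 in place of 82 in Atm-WT cells and 377 in place of 1 in Atm-KO cells. Between irradiated genotypes the block matched Atm-KO with Atm-WT samples of the same number, and 140 features were called in place of 38. No member was called for irradiation with the block.

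In Atm-WT cells Acadm differed by -0.47 ± 0.634 between irradiated and nonirradiated samples (95% interval -1.85 to 0.91, limma adjusted p = 1). That SE pools the spread of all 4 groups, including the dim Atm-KO groups with SDs of 0.587 and 1.56. The interval is therefore not a measure of the spread in Atm-WT cells alone. The 3 irradiated Acadm values in Atm-WT cells were each below the nonirradiated value of the same replicate number, but the groups overlapped. In Atm-KO cells it was not well above background on 5 of 6 arrays, so no fold is given for irradiation there. The interaction estimate of 0.85 ± 0.896 rests on those dim spots and had a limma adjusted p of 1.

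Acadl was the only member whose irradiated and nonirradiated Atm-WT groups did not overlap, with a difference of -0.37 ± 0.206 (95% interval -0.82 to 0.07, limma adjusted p = 0.946). Irradiated groups wholly below nonirradiated ones were found for 5.7% of all features in Atm-WT cells. Hadha differed by 0.26 ± 0.258 and Hadhb by -0.23 ± 0.234, Acadvl by 0.14 ± 0.332, Cpt1a by 0.08 ± 0.274, Acads by 0.02 ± 0.348 and Cpt2 by 0.00 ± 0.326, all with a limma adjusted p of 1. Of the 8 differences 5 were above 0, and their median was 0.01 beside -0.02 over all features.

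In Atm-KO cells the differences of the 7 measured members were small as well. Acads differed by -0.27 ± 0.348 (limma adjusted p = 0.904), Cpt2 by -0.26 ± 0.326 (0.903) and Hadhb by -0.13 ± 0.234 (0.931). Acadl differed by -0.09 ± 0.206, Acadvl by -0.04 ± 0.332, Hadha by -0.01 ± 0.258 and Cpt1a by 0.01 ± 0.274, and no member had irradiated and nonirradiated groups apart. The median without Acadm was -0.09 against -0.05 over all features. On all 3 slides the nonirradiated samples occupied array positions 1 and 3 and the irradiated ones positions 2 and 4, and the effects of these cannot be told apart.

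Within groups, the members fell into sets that moved together or against each other from array to array. Deviations from the group means of Acads, Acadvl and Cpt2 correlated at 0.975 to 0.983 over 12 arrays. Those of Hadhb ran against Acadvl at -0.915, against Acads at -0.871 and against Cpt2 at -0.851. Acadm was not well above background on 5 of the 12 arrays, so its deviations were taken over the 6 Atm-WT arrays alone. There they correlated at 0.899 with Hadhb and 0.566 with Acadl, and at -0.99 with Acadvl, -0.973 with Cpt2 and -0.961 with Acads. These points share their labelling, scaling and replicate numbers and are a description. Replicate 1 minus the mean of replicates 2 and 3, averaged over the 4 groups, was 0.27 for Hadhb, against -0.59 for Acadvl, -0.57 for Cpt2 and -0.56 for Acads. For Acadm it was 0.74 in nonirradiated and 1.05 in irradiated Atm-WT cells. The 75th percentile used for scaling was 608 and 757 on replicate 1 of nonirradiated and irradiated Atm-WT cells. It was 430 and 708 on replicate 1 of nonirradiated and irradiated Atm-KO cells, and 379 to 513 on replicates 2 and 3. The part of this scaling in the correlations was not tested.

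The remaining genes of fatty acid metabolism were read from 10 lists, of which 145 of 149 genes were on the array and 135 passed the filter on dim features. In each of the 5 comparisons 0 of 135 were past a limma adjusted p of 0.05, while the background was 0.445%, 0.00543%, 0.00543%, 0.857% and 0.206% in the order irradiation in Atm-WT, irradiation in Atm-KO, their difference, nonirradiated genotypes and irradiated genotypes. At an unadjusted p under 0.05 there were 3, 10, 0, 2 and 2 genes in the same order, all lower. These are 2.22%, 7.41%, 0%, 1.48% and 1.48% of the 135, where 6.46%, 7.93%, 0.901%, 7.52% and 5.23% of all features were under it in either direction. Their groups did not overlap for 8 genes (5.93%, against 10.2% of all features) on irradiation in Atm-WT cells and for 24 genes (17.8%, against 17.1%) in Atm-KO cells. They did not overlap for 17 genes (12.6%, against 13.7%) between nonirradiated and 5 genes (3.7%, against 6.85%) between irradiated genotypes. These shares, counted in either direction, lie near or below those of all features. Counted in 1 direction, 23 of the 24 on irradiation in Atm-KO cells were lower, which is 17% of the 135 against 10.4% of all features, and all 8 in Atm-WT cells were lower, 5.93% against 5.7%.

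**Figure D4:**
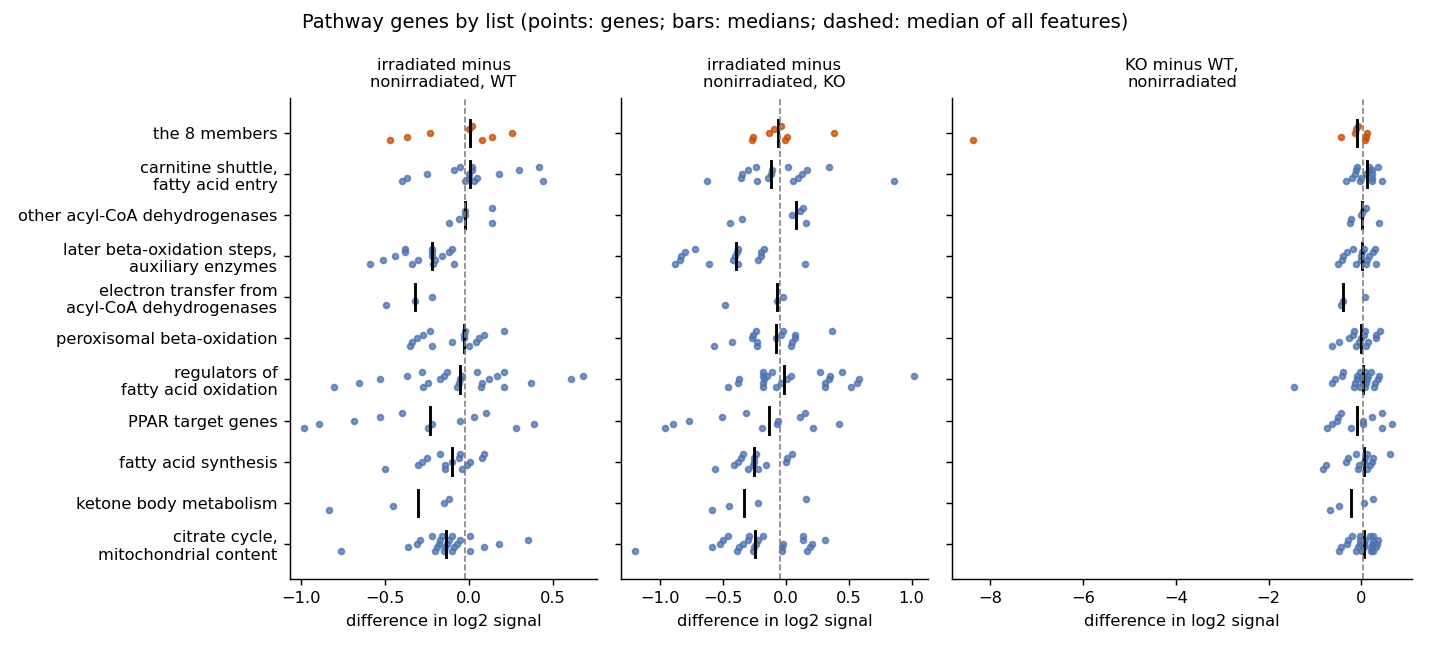
Difference in log2 signal of each tested gene (points) with the median (bar) for the 8 members and the 10 other lists of fatty acid and mitochondrial genes, for irradiation in Atm-WT, irradiation in Atm-KO and nonirradiated genotypes (WT and KO stand for Atm-WT and Atm-KO). The dashed line is the median of all 18430 features, at -0.02, -0.05 and 0.04; the point at -8.38 is Acadm, and no other listed gene lies below -1.45.

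For the enzymes of the later steps of beta-oxidation and their auxiliary enzymes nearly all differences on irradiation were below 0, although 0 of 16 were called and 0 in Atm-WT and 5 in Atm-KO cells had an unadjusted p under 0.05, as had 6.46% and 7.93% of all features. In Atm-WT cells 16 of 16 differences were below 0, with a median of -0.22 and a range of -0.59 to -0.09, where 53.2% of all features were below 0. In Atm-KO cells 15 of 16 were below 0, with a median of -0.40, and 8 had irradiated groups wholly below the nonirradiated ones, as had 10.4% of all features. Without replicate 1 the counts were 15 of 16 in each genotype, with medians of -0.25 and -0.36. The lean was not confined to this list. With all arrays, 97 of the 135 listed genes were below 0 in Atm-WT and 92 in Atm-KO cells. All features had 53.2% and 54.7% below 0. The citrate cycle list had 19 and 18 of 24 below 0, whereas fatty acid entry had 7 and 9 of 16.

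Among them Echs1, which hydrates short-chain enoyl-CoA, gave 4.37, 4.31 and 4.24 in nonirradiated and 3.14, 3.77 and 3.5 in irradiated Atm-KO cells, a difference of -0.84 ± 0.251 (limma adjusted p = 0.342). The groups lay clearly apart. Mcee, the methylmalonyl-CoA epimerase, gave 1.82, 1.11 and 1.24 against 0.22, 0.73 and 0.58, a difference of -0.88 ± 0.353 (limma adjusted p = 0.554). In Atm-WT cells both genes were lower in each irradiated sample than in the nonirradiated sample of the same replicate number, but their groups overlapped. Ech1, a dienoyl-CoA isomerase, was the one gene of the list with groups apart between irradiated genotypes, at -0.61 ± 0.313 (limma adjusted p = 1). Between nonirradiated genotypes the list was even, with 8 differences above and 8 below 0, and 3 genes had groups apart: Decr1, a dienoyl-CoA reductase, at -0.39 ± 0.289, Eci1, an enoyl-CoA isomerase, at 0.31 ± 0.306 and Echs1 at 0.24 ± 0.251.

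Electron transfer from the dehydrogenases runs through Etfa, Etfb and Etfdh. All 3 were below 0 on irradiation in either genotype, with medians of -0.32 in Atm-WT and -0.07 in Atm-KO cells, and 0 were called. Etfdh gave 2.77, 2.39 and 2.22 in nonirradiated Atm-WT and 2.15, 2.06 and 2 in nonirradiated Atm-KO cells, groups that did not overlap, with a difference of -0.39 ± 0.314 (limma adjusted p = 0.994). Of the 6 other acyl-CoA dehydrogenases tested, 3 were above and 3 below 0 between nonirradiated genotypes, and Ivd, which acts in leucine breakdown, had groups apart at 0.38 ± 0.341. Acadl, Acads, Acadvl and these 6 genes thus differed by between -0.44 and 0.38 without irradiation, beside -8.38 for Acadm.

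Genes of fatty acid entry gave medians of 0.13 and 0.02 between genotypes, and Acss1, an acetyl-CoA synthetase, was the only one of 16 with groups apart on irradiation in Atm-KO cells, at -0.63 ± 0.277. Of 15 peroxisomal genes, Phyh, the phytanoyl-CoA hydroxylase, had groups apart on irradiation in both genotypes, at -0.34 ± 0.198 and -0.27 ± 0.198. Pecr, a peroxisomal enoyl-CoA reductase, did so in Atm-KO cells at -0.57 ± 0.253. Scp2, a sterol carrier protein with thiolase activity, and Ehhadh, the peroxisomal bifunctional enzyme, gave -0.63 ± 0.308 and -0.49 ± 0.246 between nonirradiated genotypes with groups apart, while Pecr was apart there in the other direction, at 0.31 ± 0.253. Each of these had a limma adjusted p above 0.05.

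Transcriptional regulators of fatty acid oxidation did not shift as a list, with 13 of 24 differences above 0 in each genotype comparison. Pparg, the nuclear receptor of fat cell formation, gave -0.50, -0.30 and -0.06 in nonirradiated and -1.11, -0.94 and -0.76 in irradiated Atm-WT cells, a difference of -0.65 ± 0.305 (limma adjusted p = 0.801). Those groups did not overlap. Nrip1, a corepressor of nuclear receptors, was lower in nonirradiated Atm-KO than Atm-WT cells by -0.63 ± 0.37 and had groups apart there and, at 0.58 ± 0.37, on irradiation of Atm-KO cells. Ppara, the receptor that drives oxidation genes in liver, gave -3.76, -3.56 and -4.27 in nonirradiated Atm-WT and -4.28, -3.56 and -3.54 in nonirradiated Atm-KO cells, and these overlapped.

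Fgf21, a secreted metabolic hormone and target of such receptors, was the gene of the lists with the smallest p on irradiation of Atm-WT cells. It gave 0.89, 0.36 and 0.92 in nonirradiated and -0.40, -0.35 and -0.03 in irradiated Atm-WT cells, a difference of -0.98 ± 0.257 (limma adjusted p = 0.222). With the replicate number as a block the limma adjusted p was 0.0354, with a difference of -0.98 ± 0.192. In Atm-KO cells it gave 1.54, 0.99 and 0.95 against 0.41, 0.08 and 0.28, a difference of -0.90 ± 0.257 (limma adjusted p = 0.303). Acot1, an acyl-CoA thioesterase, also had groups apart in Atm-WT cells, at -0.89 ± 0.487 (limma adjusted p = 0.946).

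Idh2, the mitochondrial NADP-dependent isocitrate dehydrogenase, gave 2.45, 1.80 and 2.08 in nonirradiated and 0.39, 1.16 and 1.16 in irradiated Atm-KO cells, a difference of -1.20 ± 0.279 (limma adjusted p = 0.20). In Atm-WT cells its groups were apart as well, at -0.76 ± 0.279 (limma adjusted p = 0.55). Bdh2, a hydroxybutyrate dehydrogenase, had groups apart in both genotypes, at -0.83 ± 0.262 in Atm-WT and -0.59 ± 0.262 in Atm-KO cells. On the opposite pathway, fatty acid synthesis, Scd1, the stearoyl-CoA desaturase, was lower in Atm-KO cells by -0.83 ± 0.231 without irradiation (limma adjusted p = 0.192) and by -0.58 ± 0.231 with it. Acly, which makes cytosolic acetyl-CoA, was lower by -0.77 ± 0.249 and by -0.63 ± 0.249. Both had groups apart in both comparisons, and neither passed the test.

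Leaving out replicate 1 in all groups changed some of these calls. Without it 8 listed genes were called between nonirradiated genotypes by limma, all lower in Atm-KO cells: Acly, Acot1, Angptl4, Bdh1, Echdc3, Scd1, Scp2 and Ucp2. Between irradiated genotypes 5 were called, of which Acot1 and Bdh1 were lower and Fabp3, Fabp4 and Ppargc1a higher. The features called over the whole array rose from 158 to 1580 and from 38 to 1044 in these comparisons. The reported fit tested 135 listed genes among 18430 features. On that footing, listed genes were called no more often than features as a whole. Nothing particular to the lists is read from these counts. No member other than Acadm was called.

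Genes whose profile over the 12 arrays was most like that of Acadm were named by Pearson's r on the log2 values. The 5 highest were Clec4d, at 0.99, Ccl3, at 0.982, Ms4a6d, at 0.98, Adgre1, at 0.974, and C1qc, at 0.972, all genes best known from macrophages and other myeloid cells. The 3 lowest were Aqp5, a water channel, at -0.974, Pkp1, a desmosome plaque protein, at -0.949, and Gpd1, glycerol-3-phosphate dehydrogenase, at -0.941. Because Acadm has a high and a low genotype, a high r mostly means a like genotype step. The Atm-KO end of that step lay near background, since Clec4d was well above it on 0 and C1qc on 2 of 6 Atm-KO arrays. Among the members, r with Acadm was 0.726 for Acadl, 0.299 for Hadhb, 0.246 for Cpt2, 0.103 for Cpt1a, -0.0435 for Hadha, -0.0971 for Acads and -0.136 for Acadvl. Acadl lay above 97.4% of features in this measure, Hadhb above 81.2% and Cpt2 above 77%.

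Macrophage markers were lower in Atm-KO cells along with Acadm. C1qc gave 0.75, 0.38 and -0.25 in nonirradiated and -0.34, 0.07 and -0.78 in irradiated Atm-WT cells, against -4.75, -7.82 and -7.46 and then -3.57, -6.44 and -6.52 in Atm-KO cells. Adgre1, a macrophage surface receptor, gave -0.99, -1.39 and -2.60, then -1.5, -2.61 and -3.74, then -6.56, -7.93 and -7.94, then -5.34, -7.91 and -7.94 in the same order. Replicate 1 was the highest Atm-KO array for both, as it was for Acadm. By the bound used for Acadm, Adgre1 was at least 13.9-fold and C1qc at least 50.4-fold higher in nonirradiated Atm-WT than Atm-KO cells, where 0 and 1 of 3 arrays measured them. Like Acadm, 5 of the 8 macrophage markers tested passed the filter on dim features while at least 3 of the 6 Atm-KO arrays did not measure them, so no count of calls is read from them. The other 3 were well above background on all 12 arrays. Of these Lyz2, a lysozyme, differed by -2.59 ± 0.273 without and -2.14 ± 0.273 with irradiation (limma adjusted p = 0.000801 and 0.0116). Csf1r, a growth factor receptor of macrophages, differed by -2.33 ± 0.374 and -1.84 ± 0.374 (limma adjusted p = 0.0107 and 0.0924), and C1qb, a complement component, by -1.55 ± 0.311 and -1.22 ± 0.311 (limma adjusted p = 0.0404 and 0.209). Lyz2, Csf1r and C1qb were named after their values were seen, and their list was chosen with earlier results of these data known. Their p-values are therefore a description and not a test.

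Summed over the 9 macrophage markers on the array, as signal relative to the 75th percentile, the level was 2.97 to 5.45 in nonirradiated and 2.1 to 3.33 in irradiated Atm-WT cells, and 0.247 to 0.552 in nonirradiated and 0.32 to 0.534 in irradiated Atm-KO cells. In Atm-WT cells 8 of the 9 were well above background on all 3 arrays of each group, and in Atm-KO cells 3 of 9 were. The part of these cells in the Acadm result was not tested, and fewer cells of a type and less RNA per cell cannot be told apart in such samples. Summed fibroblast markers were 1740 to 2700 and 1450 to 2500 in Atm-WT and 2150 to 2220 and 1440 to 2320 in Atm-KO cells, in the same order. A sum leans on its brightest genes. Taken singly, 8 of the 11 were lower in Atm-KO cells without irradiation and 9 with it, where 45.2% and 50.9% of all features were lower. The marker differences ran from -1.17 to 0.15 and from -0.65 to 0.16, and 0 were called. Without irradiation 2 of the 11 had groups apart, both lower, as had 5.4% of all features. Hepatocyte markers, with 3 to 5 of 7 on no array of a group well above background, summed to at most 0.276 in any group. Adipocyte markers summed to 5.41 to 6.57 in Atm-WT and 4.68 to 7.75 in Atm-KO cells. Between genotypes, skeletal muscle markers differed by -1.48 to 0.39 without and -1.6 to 1.84 with irradiation. Heart muscle markers differed by -1.32 to 1.83 and by -1.05 to 0.99, and epithelial markers by -1.39 to 1.09 and by -2.12 to 1.11. Among the skeletal muscle, heart muscle and epithelial markers 0 were called in either genotype comparison. The 5 endothelial markers summed to 0.32 to 0.531 in Atm-WT and 0.16 to 0.455 in Atm-KO cells. Among them Cdh5, an adhesion protein of vessel walls, was well above background on 6 of 6 Atm-WT and 2 of 6 Atm-KO arrays and differed by -3.10 ± 0.614 without irradiation (limma adjusted p = 0.0373) and -2.70 ± 0.614 with it (0.137), a difference that the filter on dim features favours as for Acadm. Cdh5 too was named after its values were seen. The other 3 endothelial markers tested differed by -0.59 to 0.36 and by -0.16 to 1.05.

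Of 16489 features well above background on all 6 Atm-WT arrays, 41 were so on at most 1 of 6 Atm-KO arrays, Acadm being one, and 12 of the 41 were so on none. In the opposite direction, 22 of 16814 features on all 6 Atm-KO arrays were so on at most 1 Atm-WT array.

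The tested genes nearest to Acadm on chromosome 3, taken in the order of the gene table, were set against it. Rabggtb, the coding gene next to Acadm on one side, a geranylgeranyl transferase subunit, differed by -0.09 ± 0.217 without and -0.07 ± 0.217 with irradiation. Slc44a5, the coding gene on the other side, was on the array but failed the filter on dim features. Of the 10 nearest tested genes, 9 overlapped between genotypes in both comparisons. The exception was Lhx8, a LIM homeobox transcription factor, whose groups were apart in both. It differed by -1.12 ± 0.417 without irradiation (limma adjusted p = 0.456) and -1.29 ± 0.417 with it (limma adjusted p = 0.454). Groups apart in either direction were found for 13.7% of all features without and 6.85% with irradiation. The replicate number as a block called 140 features between irradiated genotypes. Lhx8 was among them, at -1.29 ± 0.211 (limma adjusted p = 0.0297). Without replicate 1 Lhx8 was called in both comparisons, at -1 ± 0.193 and -1.10 ± 0.193 (limma adjusted p = 0.0268 and 0.0258). Cryz, a quinone reductase, differed by 0.10 ± 0.266 and -0.09 ± 0.266, and St6galnac3, a sialyltransferase, by -0.81 ± 0.704 and 0.18 ± 0.704. Without replicate 1 St6galnac3 was called between nonirradiated genotypes, at -0.91 ± 0.202 (limma adjusted p = 0.0417). That setting called 1580 features over the whole array between nonirradiated and 1044 between irradiated genotypes.

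**Figure D5:**
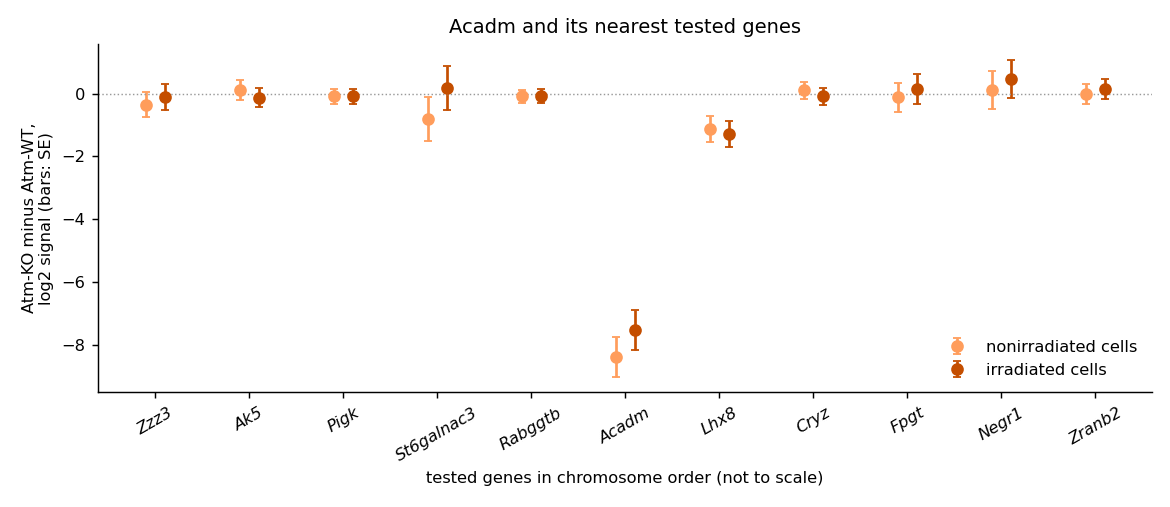
Difference in log2 signal, Atm-KO minus Atm-WT, with its SE, for Acadm and the 5 nearest tested genes on each side, in chromosome order and not to scale, in nonirradiated (light) and irradiated (dark) cells. Acadm lies at -8.38 and -7.53, Lhx8 at -1.12 and -1.29, and the other 9 genes between -0.81 and 0.46.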

How the data were processed

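RNA of 12 samples in 4 groups of 3 was measured on single-colour arrays (design 014868). The deposited scanner files hold spot intensity values, written by Feature Extraction 10.7.1.1 per the file headers and 11.0 per the submitters' processing notes, with background subtracted by the scanner software; those headers name an mm9 annotation, from which no coordinate is taken, while gene names, promoter windows and gene order come from RefSeq on GRCm38.p6. The deposited value table holds log2 values; set against the scanner files, all 41174 matched probes of its 41250 rows showed the authors' values to be signal scaled to the 75th percentile, with the median of every probe subtracted (r at least 0.99752, column medians -0.426 to 0.268, none unmapped).

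Control spots and outlier spots were left out, the 75th percentile of each array was subtracted from log2 processed signal, and a probe's spots were averaged. Accessions named 25097 probes for 17305 genes, and the brightest probe stood for a gene. A probe counted as well above background on an array where a share of at least 0.5 of its spots was flagged so, and 18430 features were so on all 3 arrays of at least 1 group and were tested, 12806 of them with a gene name. They were fitted with limma 3.58.1 in R 4.3.3 on all 12 arrays by group means, with 8 residual and 4.13 prior degrees of freedom and Benjamini-Hochberg adjustment at 0.05, in a script tested on simulated data.

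The members and lists were chosen with earlier results of these data known. The text names the members, Atm, up to 3 called genes a list or else up to 2 with groups apart and the largest difference, the 5 genes most and 3 least like Acadm, and 5 tested neighbours on each side; Ppara, Etfdh, the macrophage and endothelial markers given singly and the genes called without replicate 1 were named after their values were seen. Replicate numbers come from the titles. Deviations of same-numbered samples correlated at 0.481 to 0.852 for irradiation in Atm-WT, 0.269 to 0.51 in Atm-KO and 0.218 to 0.628 between irradiated genotypes, which were taken as paired, and at -0.217 to 0.179 between nonirradiated genotypes, which were not. Samples of different number correlated at -0.696 to 0.302, -0.527 to 0.335, -0.645 to 0.387 and -0.237 to 0.278 in the same order. These ranges overlapped those of same-numbered samples in Atm-KO cells and in both genotype comparisons. The titles do not state any pairing, and results with the replicate block rest on it. The precision is limited by the number of arrays. Alternatives were another background correction, scaling, filter, probe rule, slide term and replicate block, and leaving out arrays.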

Additional observations from a re-analysis of the deposited data

How the results depend on the processing

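The Acadm difference between genotypes kept its direction under every alternative that gave it a value, at -8.38 to -4.66 without and -7.65 to -4.11 with irradiation, and at -8.72 to -8.13 and -8.30 to -6.74 when single arrays or all of replicate 1 were left out. With only features well above background on all 12 arrays, 0 members were past the threshold in either genotype comparison, since that filter removes Acadm by construction. The other 7 members gave 903 values over 26 settings, between -0.77 and 0.47, of which 0 were called and the lowest limma adjusted p was 0.195. Other listed genes called, 0 in the reported fit, numbered 1 on irradiation of Atm-WT cells with the replicate block (Fgf21) and 1 without replicate 1 (Fabp4). Without replicate 1 they numbered 8 between nonirradiated and 5 between irradiated genotypes, beside 1580 and 1044 of all features. The cause was not tested. Leaving out any single array gave 0 in all 5 comparisons, so with all of replicate 1 counted among the arrays left out the numbers spanned 0 to 1 for irradiation of Atm-WT cells, 0 to 8 between nonirradiated and 0 to 5 between irradiated genotypes. Between nonirradiated genotypes, where replicate numbers were not taken as pairs, the replicate block gave 315 features called in place of 158, among them Lhx8 (limma adjusted p = 0.0312) and Atm (0.00941). Called features over the whole array ranged from 44 to 417 and 0 to 377 for irradiation in Atm-WT and Atm-KO cells, 0 to 4 for their difference, 34 to 1580 between nonirradiated and 3 to 1044 between irradiated genotypes, the lowest genotype counts with the slide as a fixed term; the correlation within slides was 0.165. Genes named outside the members kept their sign in 1505 of 1556 values and were called in 11. The genes from the lists were named in comparisons where their groups did not overlap. Leaving out arrays cannot reverse the sign there, so the share of signs kept is not a test. The setting that kept the fewest signs was the slide as a fixed term, with 44 of 60. Directions of the named genes are thus less sure where genotype and slide coincide. Signal near background limits what can be said of Acadm and of macrophage genes in Atm-KO cells.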
